A study of Mus musculus with 47 samples.

Results

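The collagen genes were taken as all protein-coding genes whose GRCm38 symbol consists of Col, a type number, the letter a and a chain number. This rule found 44 genes among 22028 protein-coding genes, and both tables of counts list all 44. They were split by textbook class into 11 fibrillar, 8 basement membrane and 25 other collagens. All 44 passed the filter on low counts in the adult table and 43 did so in the neonatal table, where Col28a1 did not.

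RNA was sequenced from medullary thymic epithelial cells (mTECs) of C57BL/6 mice, sorted as CD45-negative, EpCAM-positive and Ly51-negative cells with high (mTEChi) or low (mTEClo) surface MHC class II. Aire is the transcriptional regulator through which mTECs transcribe genes of peripheral tissues, and EED belongs to PRC2, the Polycomb complex that methylates histone H3 at lysine 27. The adult table held 23 libraries, namely WT mice of 4 to 5 weeks (7 mTEChi, 8 mTEClo) and AireKO mice of 5 to 6 weeks, all male, that lack Aire (4 mTEChi, 4 mTEClo). The neonatal table held 24 libraries from mice of 1 to 6 days, some of them pools of both sexes: controls (Ctrl, 5 mTEChi, 3 mTEClo), EEDcKO with Foxn1-Cre, which acts throughout thymic epithelium, and floxed EED (3 mTEChi, 4 mTEClo), AireKO (3 mTEChi) and AireEEDdKO, lacking both (3 mTEChi, 3 mTEClo). Ages differed between neonatal groups. In mTEClo, Ctrl mice were 1 to 3 days old, EEDcKO mice 1 to 6 days and AireEEDdKO mice 4 to 6 days. In mTEChi, Ctrl and EEDcKO mice were 1 to 6 days old and AireKO and AireEEDdKO mice 4 to 6 days. The alleles carried by Ctrl mice are not stated in the labels. The study describes neonatal mTEChi libraries as individual mice, while the labels list some of them as pools of both sexes, and for the other libraries neither source states separate animals, so that p-values measure the spread between libraries, which may there be technical.

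Total counts ran from 1602125 to 3938588 per adult and from 1578579 to 4817418 per neonatal library. Counts were scaled to CPM of the TMM-adjusted library size, ± is the SD over libraries for a level and the SE for a log2 fold change, and a gene was called at an edgeR adjusted p under 0.05 with at least a 2-fold change. The level of Aire was 753 to 921 CPM in adult mTEChi WT and 17.1 to 39.3 CPM in AireKO, and in neonatal mTEChi it was 464 to 808 CPM in Ctrl, 44.8 to 115 CPM in AireKO and 9.94 to 32.3 CPM in AireEEDdKO. Eed fell in EEDcKO mTEChi (log2 fold change -1.0 ± 0.22, edgeR adjusted p = 0.00138), and in EEDcKO mTEClo its drop was under 2-fold (log2 fold change -0.67 ± 0.22, edgeR adjusted p = 0.0231). In neonatal mTEChi it was 11.6 to 17.1 CPM in AireEEDdKO and 34.9 to 48.2 CPM in AireKO, so some Eed transcript remained. The epithelial genes Epcam, Krt5, Krt8, Krt14, Krt18 and Cdh1 summed to between 1385 and 3241 CPM in every adult library and between 1500.4 and 2270.2 CPM in every neonatal one, and none of the 6 was called with Aire loss in either adult fraction. Of the adult libraries 6 hold 0 mitochondrial counts, namely all 4 mTEChi AireKO and replicates 3 and 4 of mTEClo AireKO, so within adult mTEChi this property cannot be told apart from the genotype. With age in weeks as a term Aire loss there called 28 members, all lower and 25 of them shared with the 26 reported below, and with sex as a term 26.

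Collagens are trimers of alpha chains wound into a triple helix. Fibrillar collagens (types I, II, III, V, XI, XXIV and XXVII) build the rope-like fibrils of connective tissue, bone and cartilage and are mostly made by mesenchymal cells. Type IV collagen and the multiplexins XV and XVIII belong to basement membranes, the sheets on which epithelia rest. The other classes sit on fibrils (the FACITs, types IX, XII, XIV, XVI, XIX, XX and XXII), form beaded microfilaments (type VI), hexagonal nets (types VIII and X) or anchoring fibrils (type VII), or span the cell membrane (types XIII, XVII, XXIII and XXV). In the thymic medulla, mTECs transcribe many genes of other tissues and display their products to developing T cells, so collagen transcripts in these cells can be such tissue antigens as well as parts of the cells' own matrix.

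The promoter sequences of 4 called members are shown as examples of how far the members differ in CpG, the dinucleotide that is dense at many promoters bound by PRC2. Col6a3 and Col3a1 were called lower with Aire loss in mTEChi and higher with EED loss in mTEClo. Col5a1 and Col23a1 were called higher with EED loss, in both fractions and in mTEClo, and were not called lower with Aire loss. Each run is the 250 bases before the RefSeq start on GRCm38.p6, written 5′ to 3′ on the gene's strand with CpG dinucleotides in capitals.
Col6a3 (chr1:90843972-90844221, minus strand): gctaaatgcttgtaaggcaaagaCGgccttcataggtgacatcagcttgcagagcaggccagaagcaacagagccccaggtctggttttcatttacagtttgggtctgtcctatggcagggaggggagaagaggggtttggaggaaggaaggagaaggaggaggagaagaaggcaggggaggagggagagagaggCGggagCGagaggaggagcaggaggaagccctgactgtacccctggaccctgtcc
Col3a1 (chr1:45311288-45311537, plus strand): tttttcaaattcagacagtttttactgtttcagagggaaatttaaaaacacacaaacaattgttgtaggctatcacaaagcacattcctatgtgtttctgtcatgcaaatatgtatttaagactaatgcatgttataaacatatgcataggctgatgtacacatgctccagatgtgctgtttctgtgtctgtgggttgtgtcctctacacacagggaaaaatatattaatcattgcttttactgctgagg
Col5a1 (chr2:27886175-27886424, plus strand): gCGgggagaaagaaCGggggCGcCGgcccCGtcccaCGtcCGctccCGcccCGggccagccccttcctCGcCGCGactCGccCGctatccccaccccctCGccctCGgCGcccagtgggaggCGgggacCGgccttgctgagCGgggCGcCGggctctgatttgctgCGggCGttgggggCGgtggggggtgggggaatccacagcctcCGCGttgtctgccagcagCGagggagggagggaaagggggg
Col23a1 (chr11:51289670-51289919, plus strand): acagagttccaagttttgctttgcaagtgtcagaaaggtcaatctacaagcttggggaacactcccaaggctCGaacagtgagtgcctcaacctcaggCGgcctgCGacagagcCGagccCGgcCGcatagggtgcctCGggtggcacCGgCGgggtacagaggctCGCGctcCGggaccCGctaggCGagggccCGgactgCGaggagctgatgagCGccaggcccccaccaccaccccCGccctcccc
These stretches hold 3 CpG in Col6a3, 0 in Col3a1, 28 in Col5a1 and 18 in Col23a1. A RefSeq window of 300 bases (250 before and 50 after the start) was matched for 35 of the 44 members. Of these, 11 (31.4%) were CpG-rich, with GC above 50% and an observed to expected CpG ratio above 0.6, against 33.3% of all 32851 windows. Among the 20 members called lower with Aire loss in mTEChi of both tables, 15 had a window and 1 of these was CpG-rich. Of the 23 members called higher with EED loss in either fraction, 18 had a window and 3 of these were CpG-rich. These 23 comprise 12 that were also lower with Aire loss in both tables, where 9 had a window and 0 were CpG-rich. The remaining 11 were not lower with Aire loss in both tables, and of them 9 had a window and 3 were CpG-rich. Col5a1 and Col23a1, printed above, are among these 3. Searched on both strands, GGGCGG lay in 62.9% of member windows and 35.7% of all windows, TATAAA in 14.3% and 13.6%, and CCAAT in 34.3% and 37.4%. These matches describe the letters alone, and the sets were small.

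In control cells the collagen transcripts differed in kind between the fractions. Levels between genes are given as CPM per kb of exon. In adult WT mTEClo, the most abundant chains were Col6a1, 122 ± 17.5 CPM per kb, Col4a1, 71.8 ± 12.3, Col6a2, 65.5 ± 10.1, Col4a2, 60.2 ± 9.68, and the FACIT Col12a1, 39.1 ± 2.85. The intervals of mean ± SD of Col4a1, Col6a2 and Col4a2 overlap. In adult WT mTEChi, by contrast, the leading chains were the FACIT Col14a1, 34.1 ± 2.06 CPM per kb, Col4a1, 24.3 ± 5.29, the type VI chain Col6a5, 23.1 ± 2.33, Col17a1, which encodes the hemidesmosome collagen, 22.9 ± 3.73, and Col12a1, 19.7 ± 1.61. In neonatal mTEChi Ctrl the leading chains were Col12a1 at 32.7 ± 2.88, Col14a1 at 30.6 ± 1.31 and Col4a1 at 24.5 ± 2.30 CPM per kb, and in mTEClo Ctrl Col4a2, 51.1 ± 12.2, Col4a1, 45.3 ± 8.57, Col12a1, 40.9 ± 3.42, and Col6a1, 40.2 ± 14.8, came first with overlapping spreads.

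**Figure D1:**
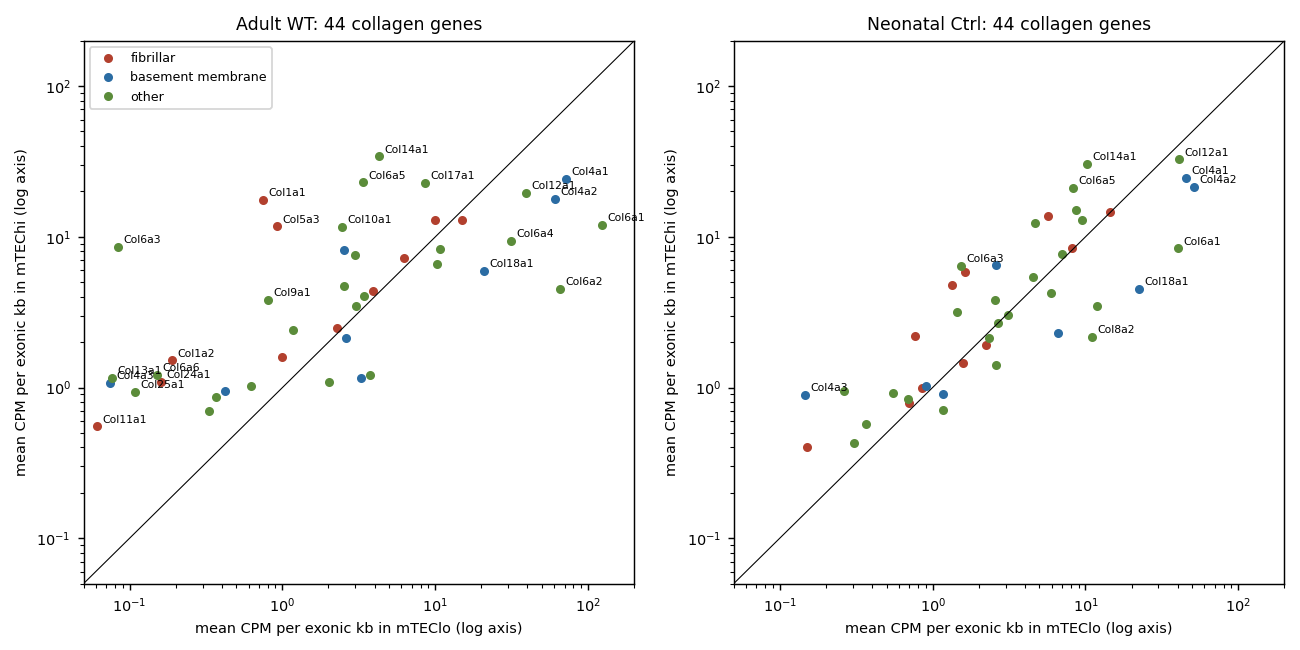
Mean level of each collagen gene in control cells as CPM per kb of exon, mTEClo on the x axis and mTEChi on the y axis, both log axes, for adult WT (left, 8 mTEClo and 7 mTEChi libraries) and neonatal Ctrl (right, 3 and 5 libraries). Points on the line have equal levels; Col6a1, Col6a2 and Col18a1 lie below it in both panels, and Col6a3, Col14a1 and Col6a5 lie above it.

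Between adult WT fractions, 28 of the 44 members were called. Higher in mTEChi were 20, against 23.7% of all tested genes, and lower were 8, against 12.4%. The higher members comprised 5 fibrillar, 3 basement membrane and 12 other collagens, and the lower ones 4 basement membrane and 4 other collagens and 0 fibrillar ones. Markers of other cell types moved with the fraction: 5 of 6 chondrocyte genes were higher in mTEChi (33.1 to 51.6 CPM in mTEClo against 137 to 179 CPM), 5 of 5 myeloid genes were higher (38.2 to 68.0 against 269 to 337 CPM), and of 10 mesenchyme genes 3 were higher and 4 lower (620.2 to 778 against 264 to 329.5 CPM). Of the endothelial, glial and thymocyte lists 3 of 4, 4 of 6 and 3 of 4 genes were higher. Their part in the collagen differences was not tested. The median log2 fold change was 0.74 over the fibrillar, -0.86 over the basement membrane and 1.00 over the other members, and 0.0044 over all genes.

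The clearest contrast lay within type VI collagen, whose Col6a1, Col6a2 and Col6a3 chains assemble into 1 protein. Col6a3 had 0 to 2.75 (median 0.618) CPM in mTEClo WT and 90.6 to 137 (median 95.5) CPM in mTEChi WT, a rise without overlap (log2 fold change 6.54 ± 0.27, edgeR adjusted p = 2.56e-18). Col6a2 moved the other way, from 416 to 643 (median 566) CPM in mTEClo to 22.8 to 54.4 (median 35.0) CPM in mTEChi (log2 fold change -3.83 ± 0.14, edgeR adjusted p = 5.12e-19). Col6a1 followed Col6a2 (535 ± 76.5 CPM in mTEClo, 52.4 ± 18.0 CPM in mTEChi, log2 fold change -3.32, edgeR adjusted p = 1.33e-17). Per kb, the ratio of Col6a1 to Col6a3 was 0.886 to 2.19 in mTEChi WT, whereas in mTEClo WT it was 558 to 4985, with 1 library without a ratio because Col6a3 had 0 counts.

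Type I, V and XIII chains and Col4a3 were also higher in adult mTEChi. Col1a1, the main chain of bone and skin fibrils, had 1.27 to 14.1 (median 3.17) CPM in mTEClo WT and 50.8 to 182 (median 112) CPM in mTEChi WT (log2 fold change 4.57 ± 0.34, edgeR adjusted p = 1.31e-12). The type V chain Col5a3 had 3.67 to 7.93 (median 6.36) CPM in mTEClo and 40.9 to 101 (median 93.9) CPM in mTEChi (log2 fold change 3.70 ± 0.21, edgeR adjusted p = 4.93e-15). Neither gene overlapped between the fractions. Col13a1, a transmembrane collagen of muscle and its synapses, was near the floor in mTEClo at 0 to 1.15 (median 0.277) CPM and reached 3.10 to 8.16 (median 4.8) CPM in mTEChi (log2 fold change 3.90 ± 0.44, edgeR adjusted p = 7.56e-09). Col4a3, a chain of the kidney's glomerular basement membrane, had 0 to 1.83 (median 0.764) CPM in mTEClo and 6.07 to 17.1 (median 10.3) CPM in mTEChi (log2 fold change 3.63 ± 0.32, edgeR adjusted p = 4.2e-11). In contrast, the general basement membrane chains Col4a1 and Col4a2 were lower in mTEChi (log2 fold changes -1.55 and -1.74), as was Col18a1, the precursor of endostatin (-1.76).

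In neonatal Ctrl cells 18 of 43 members were called between fractions, 12 higher in mTEChi against 13.8% of all tested genes and 6 lower against 6.92%. Col4a3 had 1.35, 2.46 and 0.563 CPM in mTEClo and 13.5, 8.66, 9.35, 4.49 and 8.43 CPM in mTEChi (log2 fold change 2.45 ± 0.61, edgeR adjusted p = 0.00383). Col6a3 had 25.3, 9.82 and 20.3 CPM in mTEClo and 68.6, 54.9, 80.6, 93.7 and 88.1 CPM in mTEChi (log2 fold change 2.08 ± 0.40, edgeR adjusted p = 0.000473). Col5a3 had 13.5, 9.82 and 10.1 CPM in mTEClo and 35.4, 33.5, 42.4, 38.8 and 47.5 CPM in mTEChi (log2 fold change 1.82 ± 0.42, edgeR adjusted p = 0.00215). All 3 were higher in mTEChi, without overlap between the fractions. Lower in mTEChi was Col6a1, with 130.4, 147 and 250.4 CPM in mTEClo and 25.9, 26.0, 35.5, 48.6 and 48.0 CPM in mTEChi (log2 fold change -2.21 ± 0.25, edgeR adjusted p = 1.17e-06). Col18a1 had 119, 133 and 216 CPM in mTEClo and 19.7, 23.1, 34.4, 43.6 and 38.4 CPM in mTEChi (log2 fold change -2.24 ± 0.21, edgeR adjusted p = 2.07e-07). Col8a2, a short-chain collagen of the corneal endothelium, had 40.5, 45.2 and 63.6 CPM in mTEClo and 4.50, 6.93, 11.3, 14.0 and 12.2 CPM in mTEChi (log2 fold change -2.25 ± 0.45, edgeR adjusted p = 0.0006). Of the marker lists, 4 of 6 cTEC genes were lower in mTEChi (1866 to 2842 CPM in mTEClo against 364 to 832 CPM) and 4 of 6 chondrocyte genes higher (34.9 to 66.2 against 112 to 126 CPM), as were 3 of 5 endothelial and 3 of 5 myeloid genes, and their part was not tested. The rise of Col6a3 and the drop of Col6a1 in mTEChi thus had the directions seen in adults. Col6a3 was at 18.5 ± 7.91 CPM in neonatal mTEClo Ctrl and at 1.00 ± 0.92 CPM in adult mTEClo WT, values from tables that were normalized separately and are not compared by a test.

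Summed by class, the fibrillar collagens separated the genotypes of neonatal mTEChi. Their summed level was 423 to 849 CPM in adult mTEChi WT against 207 to 415 CPM in AireKO, whereas in adult mTEClo it was 332 to 517 CPM in WT against 328 to 456 CPM in AireKO. In adult mTEChi the lowest WT sums, 423 and 430 CPM, came from mice of 4 weeks and lay close to the highest AireKO sums, 415 and 399 CPM, from mice of 5 weeks. In neonatal mTEChi the fibrillar sum was 449.6 to 561 CPM in Ctrl, 245 to 267 in AireKO, 599 to 959 in AireEEDdKO and 1011 to 1167 in EEDcKO. The 4 neonatal mTEChi genotypes did not overlap in this sum, with AireKO lowest and EEDcKO highest. In neonatal mTEClo the fibrillar sum was 341 to 360.1 CPM in Ctrl, while EEDcKO had 755 to 1278 CPM and AireEEDdKO had 1059 to 1576 CPM. The basement membrane sum in neonatal mTEChi was 382 to 502 CPM in Ctrl, 348 to 464 in AireKO, 429 to 589 in AireEEDdKO and 729.6 to 925 in EEDcKO, so that EEDcKO alone stood clear of the others. The sum over the other collagens in neonatal mTEChi was 1492 to 1594 CPM in Ctrl and 1721 to 1808 CPM in AireKO, higher in AireKO without overlap, with Col14a1 adding the most.

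**Figure D2:**
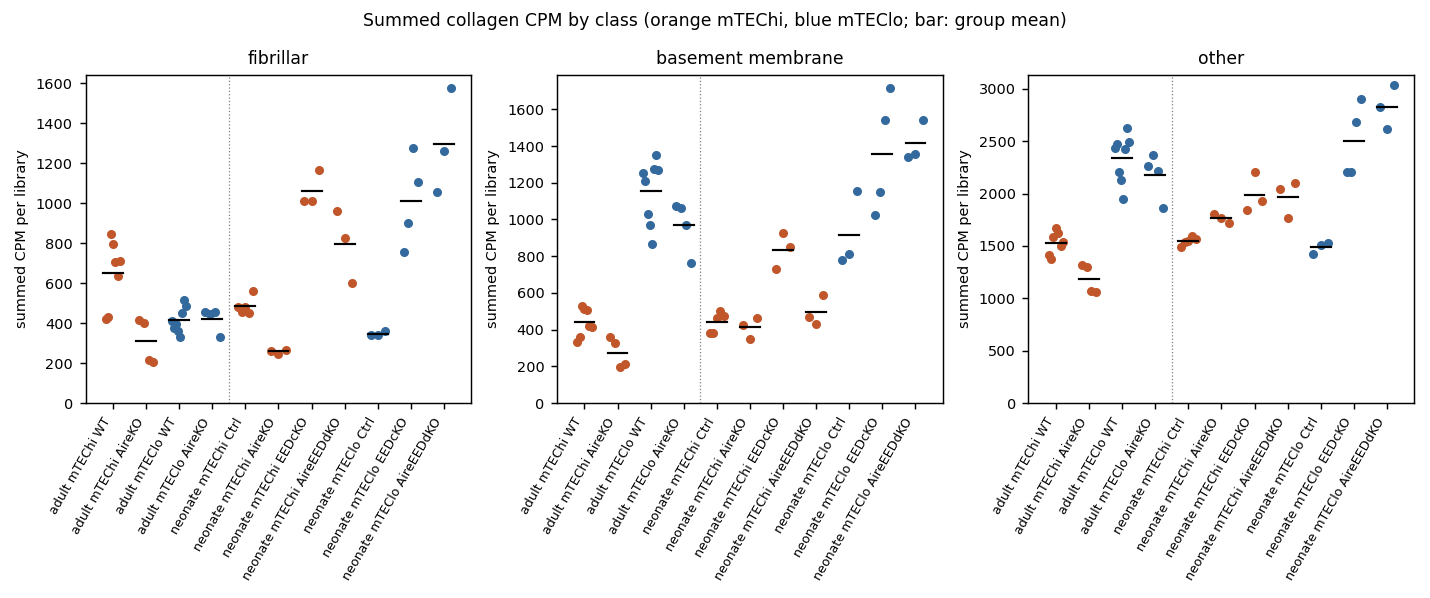
Summed CPM of the fibrillar, basement membrane and other collagens in each library (points; orange mTEChi, blue mTEClo) with the group mean (bar), adult groups left of the dotted line and neonatal groups right of it, linear axes from 0. The fibrillar sum of the 3 neonatal mTEChi AireKO libraries is 245 to 267 CPM and that of the 3 EEDcKO libraries 1011 to 1167 CPM, on either side of Ctrl.

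The question of which collagens depend on Aire was first read in adult mTEChi. There 26 of the 44 members were called lower in AireKO and 0 higher, against 17.8% and 5.63% of all tested genes. Called lower were 7 of the 11 fibrillar, 4 of the 8 basement membrane and 15 of the 25 other members, with median log2 fold changes of -2.22, -1.08 and -1.17 and -0.01 over all genes. Without the 2-fold cut, 36 members had an edgeR adjusted p under 0.05, of which 33 were lower and 3 higher. With bulk RNA, fewer cells that make a collagen and less of its RNA per cell cannot be told apart. A term for the libraries lacking mitochondrial counts could be estimated only within mTEClo AireKO, from replicates 3 and 4 (6 weeks) against 1 and 2 (5 weeks). It carries that difference over to mTEChi, so it cannot test the mTEChi result. With it, 27 members were called, 25 lower and 2 higher, 23 of them shared. Col6a5, a type VI chain, turned from -1.06 to 1.05. Col6a5 was also not called without AireKO replicate 3 or 4, nor with age in weeks as a term.

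The fibrillar members with the largest drops fell to a few counts. Col1a1 had 50.8 to 182 (median 112) CPM in WT and 1.32, 1.23, 0.685 and 0.418 CPM in AireKO (log2 fold change -6.96 ± 0.62, edgeR adjusted p = 3.81e-10). Col24a1, a minor fibrillar collagen of developing bone, had 5.16 to 12.4 (median 7.80) CPM in WT and 0, 0.409, 0 and 0 CPM in AireKO. Col11a1, which sets fibril width in cartilage, had 2.90 to 10.9 (median 8.05) CPM in WT and 0, 0.409, 0 and 0 CPM in AireKO. Both were detected by a single count in a single AireKO library. The WT to AireKO ratio per count was 80.3 (exact 95% interval 14.2 to 3193) for Col24a1 and 71.7 (12.6 to 2852) for Col11a1, and the fitted changes depend on the prior count. For Col24a1 the fit gave a log2 fold change -5.83 ± 0.71, edgeR adjusted p = 1.06e-07. For Col11a1 it gave a log2 fold change -5.63 ± 0.73, edgeR adjusted p = 2.76e-07. Also lower were Col3a1 (-3.98), Col2a1 of cartilage (-3.06), Col1a2 (-2.22) and Col5a3 (-1.33). The type V chains Col5a1 and Col5a2, with log2 fold changes of -0.29 and -0.23, Col11a2 and Col27a1 were not called. Col5a1 had 137, 127, 50.7 and 49.7 CPM over the 4 AireKO libraries, so replicates 1 and 2 differed from replicates 3 and 4 by more than 2-fold in this gene. The fibrillar sum split likewise, with 415, 399, 217 and 207 CPM in replicates 1 to 4. Replicates 1 and 2 came from mice of 5 weeks and replicates 3 and 4 from mice of 6 weeks.

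Outside the fibrillar class, Col6a3 had 90.6 to 137 (median 95.5) CPM in WT and 0.439, 0.409, 0 and 0.835 CPM in AireKO, the largest fitted drop of any member (log2 fold change -7.85 ± 0.43, edgeR adjusted p = 1.2e-13). Its partners changed far less, Col6a1 by -1.13 and Col6a2 by -1.22 on the log2 scale. Col8a1, a short-chain collagen of vessel walls and cornea, had 4.34 to 15.4 (median 6.90) CPM in WT and 0, 0.409, 0.685 and 0 CPM in AireKO, a ratio of 29.5 (9.91 to 144) with 3 counts left (log2 fold change -4.67 ± 0.56, edgeR adjusted p = 8.85e-08). Col26a1 had 3.55 to 8.57 (median 5.10) CPM in WT and 1.32, 0, 0 and 0 CPM in AireKO, with its 3 counts in 1 library, a ratio of 19.2 (6.40 to 94.7, log2 fold change -4.07 ± 0.70, edgeR adjusted p = 1.81e-05). Neither gene overlapped between WT and AireKO.

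Among basement membrane members Col4a3 (-3.55), Col4a4 (-2.15), Col15a1 (-1.78) and Col4a6 (-1.21) fell, whereas Col4a1 (-0.38) and Col4a2 (-0.56) were not called. Of 18 members not called, Col14a1 had the highest log2 fold change, 0.79. Markers of many other cell types moved with these drops. Of collagen-making cells, 7 of 10 tested mesenchyme genes were lower and 1 higher, while their sum was 264 to 329.5 CPM in WT and 239.6 to 254 in AireKO, and 6 of 6 tested chondrocyte genes were lower, summing to 137 to 179 CPM in WT against 15.5 to 31.8 CPM in AireKO. Pdgfra, which marks many fibroblasts, averaged 0.207 CPM in AireKO, but it is 1 of 12 listed mesenchyme genes and was not read as the absence of such cells. Lower as well were 4 of 4 thymocyte, 4 of 6 glial, 2 of 4 endothelial, 2 of 4 muscle, 2 of 4 pericyte and 2 of 5 myeloid genes. Of the glial, pericyte and myeloid lists 1 gene each was higher. The thymocyte and muscle sums were lower in AireKO without overlap, whereas the myeloid sum was higher (269 to 337 CPM in WT, 354 to 407 CPM in AireKO). The glial sums (176 to 219 and 168 to 198 CPM) overlapped, as did the pericyte sums (414 to 576 and 516 to 577 CPM) and the endothelial ones. The part of these cell types in the result was not tested.

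In adult mTEClo, Aire loss went with fewer collagen calls than in mTEChi, though with larger shares than over all genes. Higher were 7 members (15.9%), against 4.42% of all tested genes, and lower were 3 (6.82%), against 3.88%. Col3a1, the type III collagen of stretchable tissues, had 5.61 to 16.8 (median 9.10) CPM in WT and 16.8, 15.7, 57.8 and 37.4 CPM in AireKO (log2 fold change 1.77 ± 0.33, edgeR adjusted p = 0.000249). The 2 libraries with values of 57.8 and 37.4 CPM are those with 0 mitochondrial counts and also the only mTEClo ones from mice of 6 weeks. In this fraction the lack of mitochondrial counts thus cannot be told apart from that age. Without these libraries the log2 fold change of Col3a1 was 0.75 and no longer called, nor was it with age in weeks as a term. Col2a1 had 27.8 to 45.8 (median 36.1) CPM in WT and 123, 134, 98.3 and 79.2 CPM in AireKO (log2 fold change 1.59 ± 0.19, edgeR adjusted p = 8.31e-07). Col7a1, which forms the anchoring fibrils under the epidermis, had 21.5 to 30.8 (median 26.3) CPM in WT and 58.5, 73.3, 83.4 and 50.3 CPM in AireKO (log2 fold change 1.34 ± 0.18, edgeR adjusted p = 3.8e-06). Both lay above every WT library in every AireKO library. The transmembrane Col23a1 had 3.67 to 8.40 (median 6.77) CPM in WT and 19.5, 9.39, 21.1 and 15.5 CPM in AireKO (log2 fold change 1.32 ± 0.23, edgeR adjusted p = 0.00011). Col8a2 had 0.899 to 5.74 (median 2.45) CPM in WT and 3.25, 10.6, 9.23 and 10.7 CPM in AireKO with some overlap (log2 fold change 1.72 ± 0.32, edgeR adjusted p = 0.000201). The type VI chain Col6a4 was lower, with 199.8 to 326 (median 270.4) CPM in WT and 119.6, 150.3, 67.0 and 53.7 CPM in AireKO (log2 fold change -1.5 ± 0.19, edgeR adjusted p = 1.61e-06), but its log2 fold change was -0.98 and not called without the libraries that lack mitochondrial counts. With age as a term Col23a1 lost its call. Without those libraries 11 members were called, 6 of them shared with the 10 above, and Col28a1 and Col4a6 lost their call as well. Mesenchyme genes summed to 620.2 to 778 CPM in WT against 452 to 512 CPM in AireKO, with 0 higher and 2 lower of 10, and 4 of 6 cTEC genes were higher, 237 to 286 against 388 to 597 CPM, as were 3 of 4 muscle genes (33.1 to 76.3 against 71.8 to 227 CPM), whose part was not tested.

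The Aire effect differed between the adult fractions for 26 members, all with a lower log2 fold change in mTEChi than in mTEClo, against 11% of all tested genes with such a difference and 2.7% with the opposite one. By class these were 7 fibrillar, 5 basement membrane and 14 other members. The difference on the log2 scale was -8.88 for Col6a3, -7.32 for Col1a1, -5.92 for Col11a1, -5.75 for Col3a1, -5.72 for Col24a1 and -5.08 for Col26a1. The edgeR adjusted p-values of these 6 interaction terms ran from 5.26e-08 for Col6a3 to 0.000392 for Col11a1.

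In neonatal mTEChi the loss of Aire lowered 22 of 43 members, against 12.8% of all tested genes, and raised 3, against 3.56%. Of the 26 adult and the 22 neonatal members that fell, 20 were the same genes, an overlap that was not counted over all tested genes. Fibrillar members had a median log2 fold change of -2.57, with 7 of 11 called, basement membrane members had -0.96, with 4 of 8 called, and other members had -1.34, with 11 lower and 3 higher of 24.

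Col1a1 had 100.1, 109, 72.1, 69.7 and 102 CPM in Ctrl and 0, 1.38 and 0.283 CPM in AireKO, where 3 counts remained, a ratio of 188 (exact 95% interval 64.2 to 913, log2 fold change -7.47 ± 0.94, edgeR adjusted p = 9.51e-06). Its partner chain Col1a2 fell far less, from 27.3 ± 5.56 to 12.8 ± 4.05 CPM (-1.17). Col24a1 had 3.94, 6.35, 7.98, 7.66 and 3.98 CPM in Ctrl and 0 counts in all 3 AireKO libraries, which makes it at least 13.2-fold lower against a floor of 3 counts over the group (edgeR adjusted p = 0.000126). Col6a3 had 68.6, 54.9, 80.6, 93.7 and 88.1 CPM in Ctrl and 1.37, 0 and 0.848 CPM in AireKO (log2 fold change -6.58 ± 0.69, edgeR adjusted p = 1.57e-06). Col2a1 had 38.3, 35.8, 44.3, 43.3 and 58.1 CPM in Ctrl and 0, 2.75 and 1.70 CPM in AireKO (log2 fold change -4.81 ± 0.53, edgeR adjusted p = 1.85e-06). Every AireKO value lay below every Ctrl value in these genes. Col3a1 had 8.44, 19.1, 7.70, 7.39 and 6.32 CPM in Ctrl and 0, 1.38 and 0 CPM in AireKO, a ratio of 27.8 (7.54 to 232, log2 fold change -4.68 ± 1.29, edgeR adjusted p = 0.00905). It was not called without AireKO replicate 3, nor were Col1a2 and Col8a1. Col25a1 was not called in 7 of 8 fits that left out 1 library, and Col4a6, Col7a1 and Col9a3 in 3 of 8 each. Col11a1 had 8.44, 7.51, 4.95, 1.58 and 3.28 CPM in Ctrl and 0, 0 and 0.283 CPM in AireKO, 1 count in all (log2 fold change -4.62 ± 1.08, edgeR adjusted p = 0.00301).

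Higher in neonatal AireKO mTEChi were the FACITs Col14a1, 214 ± 9.16 CPM in Ctrl and 546 ± 90.0 CPM in AireKO (log2 fold change 1.34), Col16a1, 20.6 ± 5.34 and 58.5 ± 4.38 CPM (1.52), and Col19a1, 88.9 ± 21.6 and 203 ± 32.2 CPM (1.2). FACITs decorate the surface of fibrils. Of the 9 FACIT members these 3 rose, whereas Col9a1 (-2.14), Col20a1 (-1.90) and Col9a3 (-1.44) fell and Col9a2, Col12a1 and Col22a1 were not called. In the adult table the same 3 genes had log2 fold changes of 0.79, 0.15 and 0.72, under the 2-fold cut, and so were not called. Col19a1 lost its neonatal call when libraries were scaled by total count alone. Of 12 mesenchyme genes 2 were higher (Dcn and Lum) and 1 lower, with sums of 381 to 446 CPM in Ctrl and 382 to 463 CPM in AireKO. Pdgfra, 1 of these 12, was at 0 counts in AireKO, which was not read as the absence of fibroblasts. Of 6 chondrocyte genes 4 were lower (112 to 126 CPM in Ctrl and 36.5 to 51.4 CPM in AireKO), and Acan was at 0 counts in AireKO. Also lower were 3 of 6 glial, 3 of 5 myeloid and 2 of 5 endothelial genes. Their part in the collagen values was not tested.

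**Figure D3:**
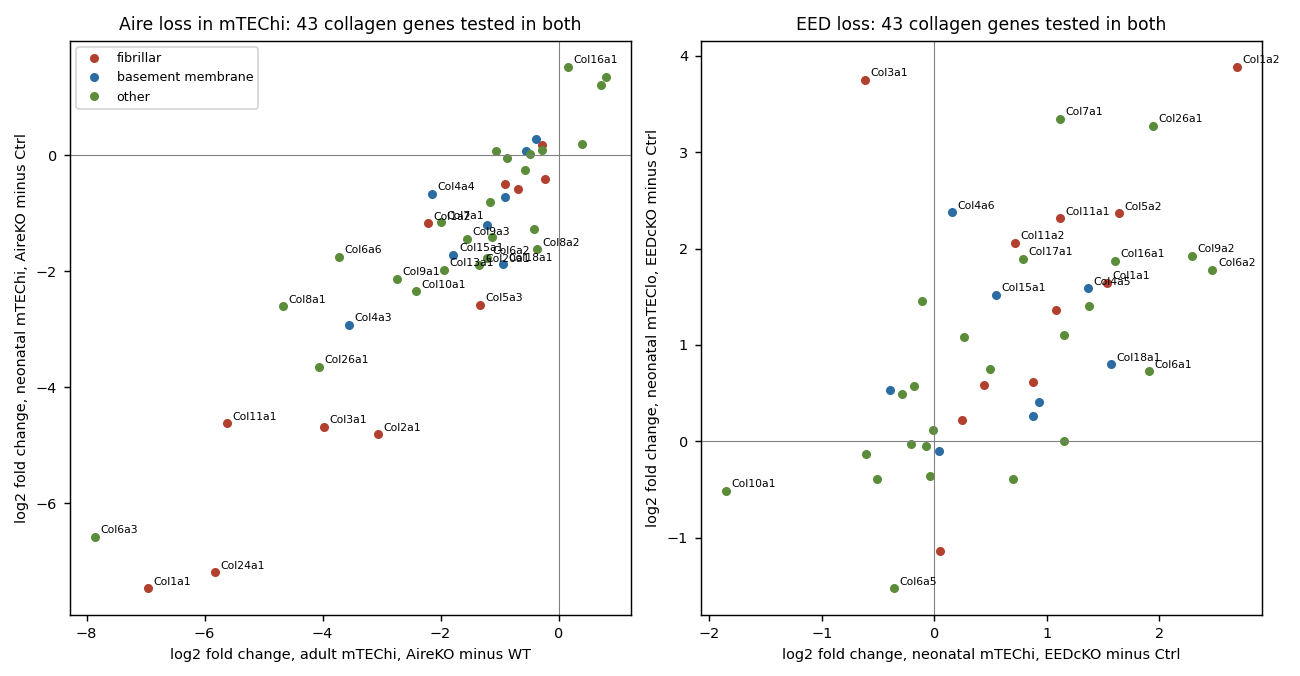
Log2 fold changes of the 43 collagen genes tested in both tables or fractions, coloured by class: Aire loss in adult (x) and neonatal (y) mTEChi on the left, EED loss in neonatal mTEChi (x) and mTEClo (y) on the right. On the left Col1a1, Col24a1 and Col6a3 lie farthest down on both axes, and on the right Col3a1 lies apart, with -0.61 in mTEChi and 3.75 in mTEClo.

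The comparison of EEDcKO with Ctrl asks which collagens change when EED is lost. In mTEChi 15 members rose, against 8.48% of all tested genes, and 1 fell, against 5.4%, and in mTEClo 20 rose, against 9.51%, and 1 fell, against 6.22%. In mTEChi 4 fibrillar, 2 basement membrane and 9 other members rose, and in mTEClo 7, 3 and 10. The median log2 fold change of the fibrillar class was 0.88 in mTEChi and 1.65 in mTEClo, that of the basement membrane class 0.71 and 0.66, and that of the others 0.38 and 0.65, beside -0.0012 and -0.01 over all genes. In both fractions 12 members rose: Col1a1, Col1a2, Col4a5, Col5a1, Col5a2, Col6a2, Col6a4, Col7a1, Col9a2, Col9a3, Col16a1 and Col26a1. The overlap of the fractions was not counted over all tested genes.

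Col1a2 rose most in either fraction. It had 33.8, 27.1, 22.8, 20.9 and 31.8 CPM in mTEChi Ctrl and 232, 136 and 158 CPM in EEDcKO (log2 fold change 2.69 ± 0.23, edgeR adjusted p = 8.18e-08), and 10.5, 7.37 and 10.7 CPM in mTEClo Ctrl and 144, 141, 135 and 139 CPM in EEDcKO (log2 fold change 3.89 ± 0.31, edgeR adjusted p = 1.08e-08). Every EEDcKO library lay above every Ctrl library of its fraction. Of type VI in mTEChi, Col6a1 had 25.9, 26.0, 35.5, 48.6 and 48.0 CPM in Ctrl and 141, 146 and 141 CPM in EEDcKO (log2 fold change 1.91 ± 0.25, edgeR adjusted p = 7.73e-06). Col6a2 had 23.6, 19.6, 32.5, 32.5 and 36.8 CPM in Ctrl and 115, 168 and 210.1 CPM in EEDcKO (log2 fold change 2.47 ± 0.30, edgeR adjusted p = 4.64e-06). Col6a3 did not follow them there, and its change on the log2 scale was -0.11 (edgeR adjusted p = 0.846). With Aire loss in mTEChi, Col6a3 had the largest change of the 3 chains.

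Col9a2, a FACIT chain of cartilage, had 7.31, 5.2, 5.78, 6.07 and 8.43 CPM in mTEChi Ctrl and 34.1, 35.7 and 28.3 CPM in EEDcKO (log2 fold change 2.29 ± 0.24, edgeR adjusted p = 1.05e-06). Col26a1 had 6.75, 6.93, 3.58, 2.90 and 3.28 CPM in Ctrl and 16.1, 21.9 and 11.3 CPM in EEDcKO in mTEChi (log2 fold change 1.94 ± 0.42, edgeR adjusted p = 0.00127) and 1.69, 1.05 and 6.19 CPM in Ctrl and 14.8, 18.7, 34.3 and 33.8 CPM in EEDcKO in mTEClo (log2 fold change 3.28 ± 0.51, edgeR adjusted p = 5.61e-05). Neither gene overlapped between Ctrl and EEDcKO. Col10a1, the collagen of hypertrophic cartilage, was the member that fell in mTEChi, with 37.1, 32.3, 53.6, 30.9 and 38.4 CPM in Ctrl and 15.5, 7.22 and 11 CPM in EEDcKO (log2 fold change -1.85 ± 0.33, edgeR adjusted p = 0.000234). In mTEClo the member that fell was Col6a5 (-1.53, edgeR adjusted p = 7.28e-05).

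The other large rises in mTEClo were in fibrillar, anchoring fibril and basement membrane genes. Col3a1 had 5.40, 10.5 and 9.0 CPM in mTEClo Ctrl and 61.6, 68.3, 157 and 156 CPM in EEDcKO (log2 fold change 3.75 ± 0.57, edgeR adjusted p = 4.03e-05). Col7a1 had 16.9, 34.0 and 31.5 CPM in Ctrl and 274, 302, 212 and 319.8 CPM in EEDcKO (log2 fold change 3.35 ± 0.33, edgeR adjusted p = 2.08e-07). Col4a6, which joins Col4a5 in the basement membranes of skin and smooth muscle, had 7.09, 8.42 and 12.4 CPM in Ctrl and 62.0, 58.2, 33.7 and 35.8 CPM in EEDcKO (log2 fold change 2.37 ± 0.32, edgeR adjusted p = 9.54e-06). Col5a2 had 29.7, 15.4 and 19.1 CPM in Ctrl and 76.8, 77.6, 153 and 136 CPM in EEDcKO (log2 fold change 2.36 ± 0.30, edgeR adjusted p = 3.84e-06). In all 4 genes the EEDcKO libraries lay above the Ctrl libraries. EEDcKO replicates 1 and 2 came from mice of 1 to 3 days, as did Ctrl, but replicates 3 and 4 from mice of 6 and 4 days. With age in days as a term, 20 members were called with EED loss in mTEClo, all of them among the 21 of the main fit. The difference of the EED effect, mTEChi minus mTEClo, passed the test in 4 members, all lower in mTEChi, against 0.97% of all tested genes, and in 0 members the other way, against 0.614%. They were Col3a1 (log2 difference -4.37 ± 0.85, edgeR adjusted p = 0.00703), Col7a1 (log2 difference -2.23 ± 0.44, edgeR adjusted p = 0.00727), Col4a6 (log2 difference -2.22 ± 0.46, edgeR adjusted p = 0.0101) and the hemidesmosome collagen Col17a1 (log2 difference -1.11 ± 0.23, edgeR adjusted p = 0.0101), the last not called without mTEClo Ctrl replicate 3, mTEChi Ctrl replicate 3 or mTEChi EEDcKO replicate 1. In mTEChi, Col3a1 had 8.44, 19.1, 7.70, 7.39 and 6.32 CPM in Ctrl and 11.8, 5.47 and 2.83 CPM in EEDcKO, which overlap.

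Mesenchyme and pericyte genes moved with EED loss as well. In mTEClo 5 of 12 mesenchyme genes were higher and 1 lower, and their sum was 447 to 563 CPM in Ctrl and 1025 to 1369 CPM in EEDcKO, while 5 of 6 cTEC genes were lower (1866 to 2842 and 276 to 961 CPM). In mTEChi 4 of 12 mesenchyme genes were higher, with sums of 381 to 446 and 580.3 to 661 CPM, and 2 of 4 pericyte genes, with 418 to 539 CPM in Ctrl and 666 to 948 CPM in EEDcKO. None of the listed mesenchyme genes was at 0 in an EEDcKO group. The part of these cell types in the collagen rises was not tested. Single libraries carried some calls: in mTEChi, Col5a1, Col6a4, Col7a1, Col16a1 and Col22a1 were not called without EEDcKO replicate 2, nor Col1a1 without replicate 3. In mTEClo, Col6a4 was not called in 5, Col23a1 in 4 and Col1a1 in 3 of 7 fits that left out 1 library, nor Col6a3 without Ctrl replicate 2. The Col6a4 call in mTEClo, at edgeR adjusted p = 0.0443, was also lost under both other scalings, with age in days as a term, with the replicate number as a block and when the groups were fitted alone.

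**Figure D4:**
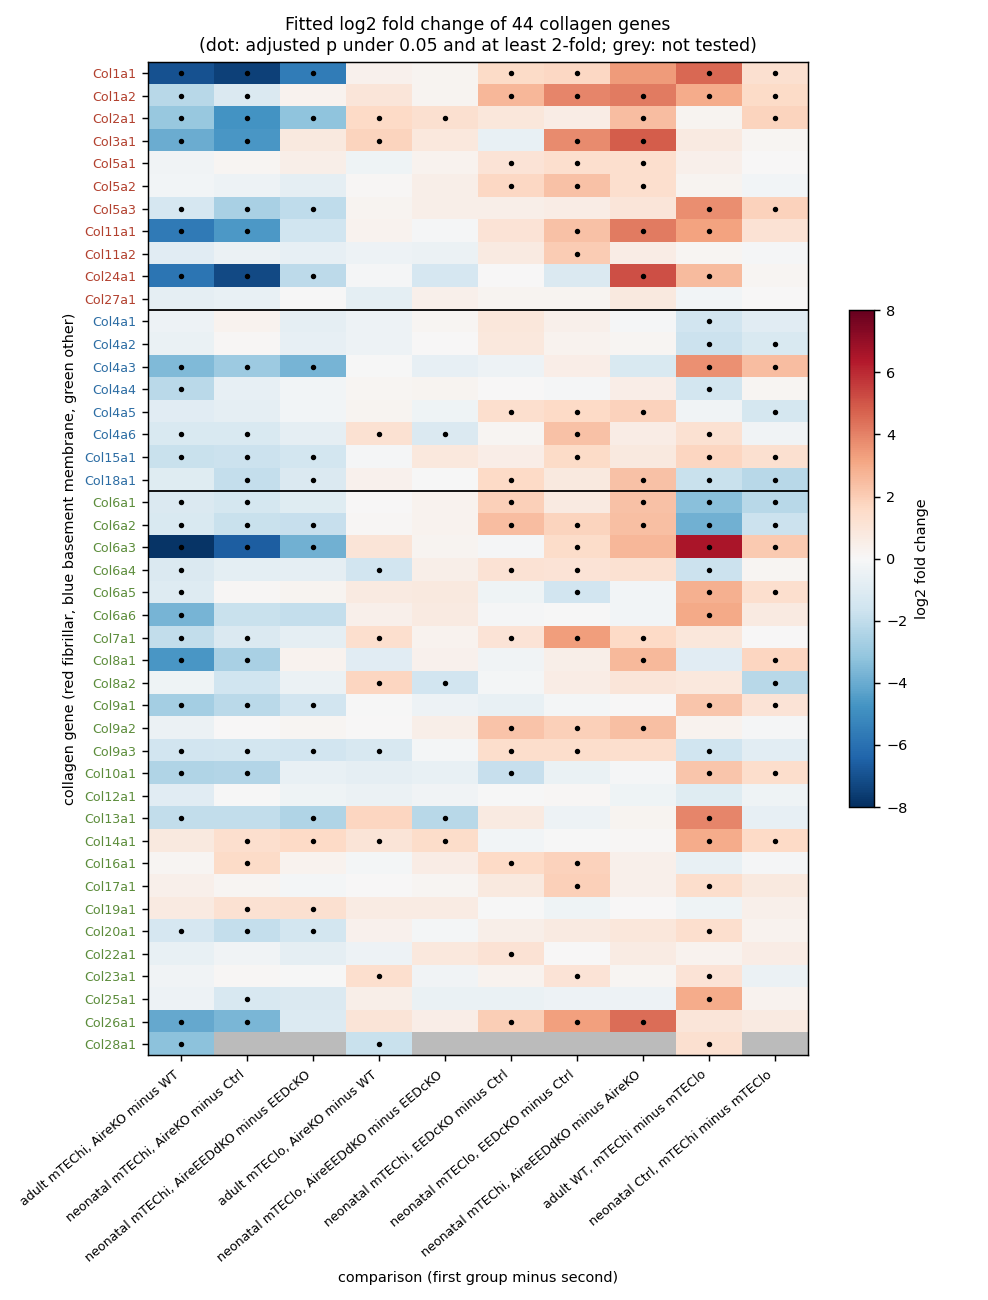
Fitted log2 fold change of each of the 44 collagen genes (rows, grouped by class) in the 10 comparisons of pairs of groups (columns), on a scale from -8 (blue) to 8 (red); a dot marks a called gene and grey a gene not tested. The columns of Aire loss in mTEChi are mostly blue and those of EED loss mostly red, while Col12a1 and Col27a1 carry no dot in any column.

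Without Aire, EED loss in mTEChi raised 15 of 43 members and lowered 0 (AireEEDdKO minus AireKO, against 6.69% and 2.78% of all tested genes). These comprised 7 of 11 fibrillar, 2 of 8 basement membrane and 6 of 24 other members, with median log2 fold changes of 2.46, 0.56 and 0.55. This comparison shares the AireKO libraries with that of AireKO and Ctrl, so values low in them enter both. Marker lists moved with it: 4 of 5 muscle genes were higher (35.8 to 63.0 CPM in AireKO against 128 to 210.2 CPM in AireEEDdKO), 3 of 12 mesenchyme genes (382 to 463 against 494 to 610.5 CPM), 2 of 4 pericyte genes (569.5 to 831 against 861 to 917 CPM) and 2 of 6 chondrocyte genes (36.5 to 51.4 against 114 to 201 CPM). None of these sums overlapped, and their part was not tested.

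Type I collagen split between its chains. Col1a2 had 15.8, 14.5 and 8.19 CPM in AireKO and 223, 291 and 127 CPM in AireEEDdKO (log2 fold change 4.15 ± 0.32, edgeR adjusted p = 1.26e-08), above every Ctrl value. Col1a1 had 0, 1.38 and 0.283 CPM in AireKO and 7.65, 4.62 and 4.17 CPM in AireEEDdKO, a ratio of 11.2 (exact 95% interval 3.51 to 56.8) from 3 and 34 counts that was not called (log2 fold change 3.38 ± 1.52, edgeR adjusted p = 0.138), and these values lay below every Ctrl value. Per kb, Col1a2 stood at 0.131 to 0.178 of the Col1a1 level in mTEChi Ctrl, 0.198 to 0.693 in EEDcKO, 5.55 to 15.3 in AireKO (1 library had no Col1a1) and 15.4 to 33.3 in AireEEDdKO. In the type I trimer the Col1a1 chain is the more numerous. The mTEClo AireEEDdKO libraries had ratios of 0.421 to 1.04, near those of mTEClo EEDcKO (0.334 to 1.78). The adult fractions gave 0.0579 to 0.149 in mTEChi WT and 1.23 to 5.81 in mTEChi AireKO.

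Col3a1 had 0, 1.38 and 0 CPM in AireKO and 7.65, 1.73 and 18.3 CPM in AireEEDdKO, a ratio of 36.0 (9.61 to 303) from 2 and 73 counts (log2 fold change 4.86 ± 1.34, edgeR adjusted p = 0.0139), not called without AireKO or AireEEDdKO replicate 3. Col26a1 had 0, 0 and 0.565 CPM in AireKO and 5.89, 4.62 and 11.2 CPM in AireEEDdKO, a ratio of 26.1 (6.88 to 221, log2 fold change 4.47 ± 0.92, edgeR adjusted p = 0.00151). The AireEEDdKO values of both genes overlapped the Ctrl range, which was 6.32 to 19.1 CPM for Col3a1 and 2.90 to 6.93 CPM for Col26a1. Col8a1 had 0.685, 2.75 and 0.565 CPM in AireKO and 14.1, 2.89 and 5.13 CPM in AireEEDdKO (log2 fold change 2.62 ± 0.68, edgeR adjusted p = 0.0096). Col2a1 had 0, 2.75 and 1.70 CPM in AireKO and 12.4, 4.04 and 9.30 CPM in AireEEDdKO (log2 fold change 2.46 ± 0.66, edgeR adjusted p = 0.0121). Col9a2 had 7.54, 8.26 and 5.37 CPM in AireKO and 46.5, 34.1 and 29.2 CPM in AireEEDdKO (log2 fold change 2.42 ± 0.31, edgeR adjusted p = 1.01e-05). Of these, Col2a1 stayed below every Ctrl library and Col9a2 lay above every one. Col2a1 and Col8a1 were not called without AireEEDdKO replicate 1 or AireKO replicate 3. Col24a1 and Col11a1, detected by 0 and 1 counts in AireKO, lost their calls in 5 and 4 of 6 fits that left out 1 library.

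On the EEDcKO background, the loss of Aire (AireEEDdKO minus EEDcKO) lowered 13 members, against 8.36% of all tested genes, and raised 2, against 4.99%. It shares the EEDcKO libraries with the comparison of EEDcKO and Ctrl. Of the marker lists, 4 of 6 chondrocyte genes were lower and 1 higher (116 to 212 CPM in EEDcKO against 114 to 201 CPM), 4 of 12 mesenchyme genes were lower and 2 higher (580.3 to 661 against 494 to 610.5 CPM) and 2 of 5 endothelial genes were lower, whose part was not tested. Col1a1 had 177, 181 and 422 CPM in EEDcKO and 7.65, 4.62 and 4.17 CPM in AireEEDdKO (log2 fold change -5.62 ± 0.64, edgeR adjusted p = 5.97e-06). Col6a3 had 118, 59.7 and 44 CPM in EEDcKO and 0.589, 1.73 and 9.94 CPM in AireEEDdKO (log2 fold change -3.85 ± 0.52, edgeR adjusted p = 3.14e-05). Neither gene overlapped between the genotypes. Col2a1 had 71.2, 119.9 and 51.6 CPM in EEDcKO and 12.4, 4.04 and 9.30 CPM in AireEEDdKO (log2 fold change -3.23 ± 0.40, edgeR adjusted p = 1.27e-05). Col24a1 had 2.48, 6.56 and 8.81 CPM in EEDcKO and 1.77, 2.31 and 0.642 CPM in AireEEDdKO (log2 fold change -2.10 ± 0.61, edgeR adjusted p = 0.0168). These genes did not overlap either. Col4a3 had 0.619, 6.78 and 11 CPM in EEDcKO and 0.589, 0 and 0.642 CPM in AireEEDdKO, where 3 counts were left, a ratio of 15.6 (5.12 to 77.6, log2 fold change -3.75 ± 0.85, edgeR adjusted p = 0.00321). Col13a1 had 6.81, 1.97 and 7.86 CPM in EEDcKO and 0.589, 2.31 and 0.321 CPM in AireEEDdKO (log2 fold change -2.43 ± 0.76, edgeR adjusted p = 0.0248). The last pair of genes overlapped between the genotypes. Col13a1 and Col24a1 were not called without EEDcKO replicate 3 or AireEEDdKO replicate 3, nor Col13a1 without AireEEDdKO replicate 1. Col14a1 (1.62) and Col19a1 (1.29) were higher, the FACITs that were also higher in AireKO against Ctrl. By contrast, Col3a1, Col1a2, Col5a1 and Col9a2 had log2 fold changes of 0.80, 0.29, 0.46 and 0.15 and were not called.

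Whether the EED effect depended on Aire was tested by the interaction. By edgeR it called 0 members higher, against 0.807% of all tested genes, and 0 lower, against 0.446%, while 12 of 43 had an unadjusted p under 0.05 and DESeq2 called 3 higher. The fibrillar median of the interaction was 1.46 on the log2 scale. The smallest p among members was that of Col1a2 (log2 difference 1.46, edgeR adjusted p = 0.0618), followed by Col3a1 (5.48) and Col8a1 (2.90).

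In mTEClo, AireEEDdKO minus EEDcKO called 2 members higher, against 3.45%, and 3 lower, against 1.85%, namely Col14a1 (1.45), Col2a1 (1.26), Col13a1 (-2.24), Col8a2 (-1.51) and Col4a6 (-1.16). That count was 0 when the 2 groups were fitted alone and 1 without AireEEDdKO replicate 1 or 2, so it rests on these libraries. Col14a1 had 48.8, 61.1, 78.9 and 91.1 CPM in EEDcKO and 256, 184 and 137 CPM in AireEEDdKO (log2 fold change 1.45 ± 0.22, edgeR adjusted p = 0.000455). Col2a1 had 20.9, 20.1, 17.1 and 21.2 CPM in EEDcKO and 44.8, 65.7 and 31.5 CPM in AireEEDdKO (log2 fold change 1.26 ± 0.32, edgeR adjusted p = 0.016). Neither overlapped. Col4a6 had 62.0, 58.2, 33.7 and 35.8 CPM in EEDcKO and 12.9, 19.7 and 30.3 CPM in AireEEDdKO (log2 fold change -1.16 ± 0.28, edgeR adjusted p = 0.012). Col8a2 had 125, 119, 24.7 and 28.3 CPM in EEDcKO and 20.5, 20.3 and 35.9 CPM in AireEEDdKO, with overlap (log2 fold change -1.51 ± 0.45, edgeR adjusted p = 0.0382). The EEDcKO libraries at 125 and 119 CPM came from mice of 1 to 3 days and all others here from mice of 4 to 6 days, and with age in days as a term Col8a2 and Col4a6 were not called. Col8a2 was also not called with the replicate number as a block, nor was Col13a1, which lost its call in 5 of 7 fits that left out 1 library. Of 5 muscle genes 4 were higher (35.4 to 107 CPM in EEDcKO against 139 to 386 CPM in AireEEDdKO), and their part was not tested.

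**Figure D5:**
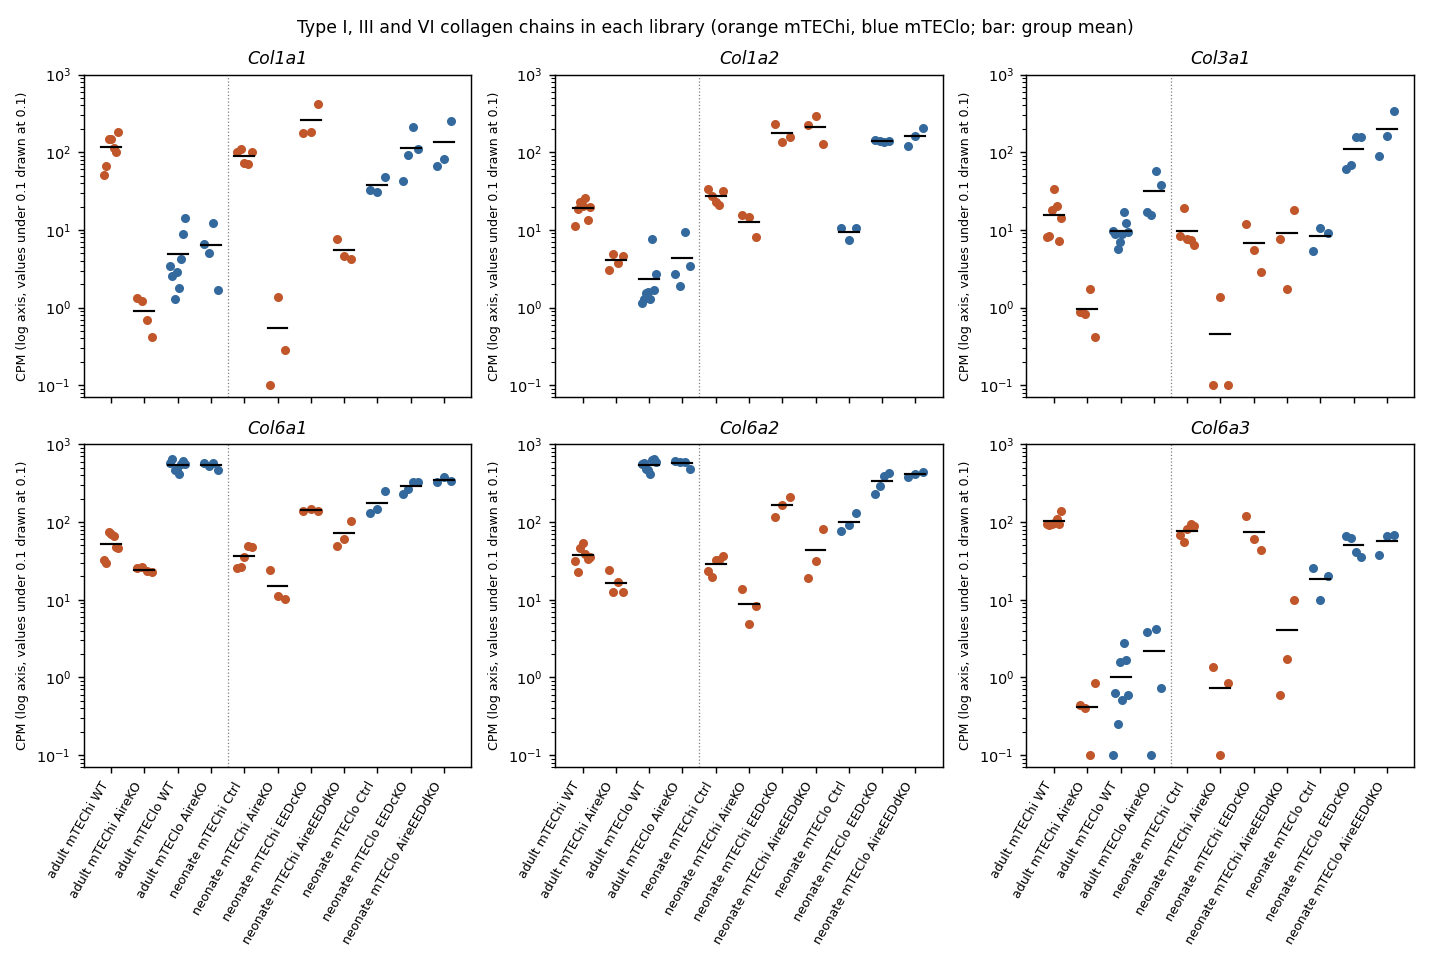
CPM of the type I, III and VI chains in each library (points; orange mTEChi, blue mTEClo; bar, group mean) on a log axis with values under 0.1 drawn at 0.1, adult groups left of the dotted line and neonatal groups right of it. In neonatal mTEChi AireEEDdKO, Col1a1 lies at 4.17 to 7.65 CPM, far below EEDcKO, whereas Col1a2 lies at 127 to 291 CPM, level with EEDcKO.

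Neighbouring collagen genes differed in how alike they were. Col4a1 and Col4a2 start 21 bases apart on opposite strands of chromosome 8, and the per-kb ratio of Col4a1 to Col4a2 stayed between 0.846 and 1.62 over all 47 libraries. Neither gene was called with Aire or EED loss in any comparison. Over the 10 comparisons of pairs of groups, however, their log2 fold changes reached 0.93 for Col4a1 and 0.87 for Col4a2, little under the 2-fold cut. Col4a3 and Col4a4, 72 bases apart on chromosome 1, both fell with Aire loss in adult mTEChi, but in adult mTEClo WT Col4a4 had 34.5 ± 6.05 CPM and Col4a3 0.747 ± 0.587 CPM, so that between adult fractions Col4a3 was higher and Col4a4 lower in mTEChi. Col4a5 and Col4a6 lie 1309 bases apart on chromosome X, and with EED loss Col4a5 rose in both fractions whereas Col4a6 rose in mTEClo. Col3a1 and Col5a2, 24.6 kb apart on chromosome 1, both rose with EED loss in mTEClo and without Aire in mTEChi, and with Aire loss in mTEChi Col3a1 fell and Col5a2 was not called in either table. Counting disregarded strand, and 5.65% of the Col4a3 exon bases, 6.07% of those of Col9a3, 3.39% of Col6a4 and 2.5% of Col5a1 are shared with another gene.

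Genes that modify, fold, cut and cross-link collagen were read from a list. Of 31 tested genes for biosynthesis and assembly, 10 were lower and 1 higher with Aire loss in adult mTEChi, where 17.8% and 5.63% of all tested genes were, and 10 lower and 0 higher in neonatal mTEChi, where 12.8% and 3.56% were. The shares of all genes given with the members apply to the other counts below. Sparc, a collagen-binding matrix protein, fell in both (log2 fold change -4.97 ± 0.19, edgeR adjusted p = 1.1e-16 in adults, log2 fold change -4.38 ± 0.36, edgeR adjusted p = 8.57e-08 in neonates). P3h1, a prolyl 3-hydroxylase of collagen, was the gene that rose in adults (log2 fold change 1.59 ± 0.13, edgeR adjusted p = 1.1e-10). With EED loss 7 of the 31 were higher and 0 lower in each fraction, among them the collagen chaperone Serpinh1 in mTEChi (log2 fold change 1.75 ± 0.23, edgeR adjusted p = 9.1e-06), P3h4 in mTEChi (log2 fold change 1.69 ± 0.22, edgeR adjusted p = 7.35e-06) and the cross-linking enzyme Lox in mTEClo (log2 fold change 2.87 ± 0.33, edgeR adjusted p = 1.17e-06). Without Aire, EED loss raised 8 and lowered 0, P3h4 by 2.65 (edgeR adjusted p = 1.01e-05). Adult mTEClo AireKO had 4 higher and 1 lower, such as the procollagen proteases Adamts2 (log2 fold change 1.27 ± 0.20, edgeR adjusted p = 2.6e-05), Adamts14 (log2 fold change 1.02 ± 0.16, edgeR adjusted p = 2.71e-05) and Adamts3 (log2 fold change -1.02 ± 0.19, edgeR adjusted p = 0.00017), and Tll2 (log2 fold change 2.40 ± 0.46, edgeR adjusted p = 0.000304).

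Among 16 partners of collagen in basement membranes, Nid1, which links laminin to type IV collagen, fell with Aire loss in adult (log2 fold change -4.43 ± 0.31, edgeR adjusted p = 4.91e-12) and neonatal mTEChi (log2 fold change -4.25 ± 0.31, edgeR adjusted p = 3.45e-08), and the laminin chain Lamc3 fell in adults (log2 fold change -5.92 ± 0.42, edgeR adjusted p = 6.59e-12). In all, 3 of 16 were lower in each table, close to the 17.8% and 12.8% of all tested genes, 1 was higher in adults and 0 in neonates. EED loss raised 5 in mTEChi and 4 in mTEClo and lowered 0, led by the laminin chain Lama5 (log2 fold change 1.77 ± 0.14, edgeR adjusted p = 3.94e-08 in mTEChi, log2 fold change 1.71 ± 0.16, edgeR adjusted p = 9.09e-08 in mTEClo) and Lamb2 (log2 fold change 1.01 ± 0.14, edgeR adjusted p = 1.14e-05 and log2 fold change 1.34 ± 0.14, edgeR adjusted p = 5.78e-07). AireEEDdKO minus AireKO raised 6, including Lama5 (log2 fold change 1.48 ± 0.17, edgeR adjusted p = 3.47e-06). Between fractions the laminin chain Lamb1 was lower in mTEChi, as Col4a1 and Col4a2 were in adults (log2 fold change -2.76 ± 0.08, edgeR adjusted p = 9.88e-21 in adults, log2 fold change -2.01 ± 0.18, edgeR adjusted p = 1.56e-07 in neonates), as were Lama3 (-1.94) and Lamb3 (-2.57) and the lysyl hydroxylase Plod2 (-3.03) in adults and Lamc1 (-1.77), P4ha3 (-2.74) and Mmp2 (-2.66) in neonates.

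Of 9 collagen receptors 3 were lower with Aire loss in adult and 5 in neonatal mTEChi, where Mrc2, which takes up collagen fragments, fell (log2 fold change -4.40 ± 0.60, edgeR adjusted p = 2.08e-05) and 1 was higher, with 17.8% and 12.8% of all tested genes lower. Of 8 collagenases and inhibitors 4 were lower and 0 higher in each table, Timp2 among them in neonates (log2 fold change -1.66 ± 0.22, edgeR adjusted p = 1.49e-05), and with EED loss 4 were higher and 1 lower in mTEChi and 2 higher and 1 lower in mTEClo, where Timp2 rose (log2 fold change 1.6 ± 0.18, edgeR adjusted p = 9.37e-07) as it did without Aire in mTEChi (log2 fold change 1.87 ± 0.24, edgeR adjusted p = 1e-05). Where Aire was lost on top of EED in mTEChi, Lamc3 (-4.86), Nid1 (-2.23) and Sparc (-1.78) fell and the collagen-binding integrin chain Itga1 rose (2.14). For Sparc the Aire by EED interaction passed the test (log2 difference 2.61 ± 0.48, edgeR adjusted p = 0.0121), as it did for Nid1 (2.02) and Nid2 (-1.09).

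Over the 10 comparisons of pairs of groups, 21 members were called in 5 or more, 21 in 1 to 4 and 2 in 0. This tally was not made over all tested genes, so it does not tell whether collagens were called in more comparisons than other genes. The uncalled members were Col12a1, a FACIT with log2 fold changes from -0.99 to 0.12, and the fibrillar Col27a1, from -0.76 to 0.80. Both were well expressed in every group, Col12a1 at 497 ± 43.9 CPM and Col27a1 at 110.1 ± 19.2 CPM in neonatal mTEChi Ctrl.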

How the data were processed

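The authors deposited whole read counts per gene in 2 tables, 23 adult and 24 neonatal libraries. Per the labels and the methods, reads of full-length total RNA libraries were trimmed with fastp 0.20.0, to 50 bases when necessary, aligned to mm10 with STAR 2.7.3a, filtered with SAMtools 1.9 (mapping quality under 5 removed) and stripped of duplicates with Picard 2.21.1, and HTSeq 0.11.2 counted them per Ensembl gene without regard to strand. The annotation release was not given in the sources used here. The normalized tables of the authors were not used.

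Genes were filtered by expression, scaled by TMM and fitted per table over all its groups with edgeR 4.0.16 in R 4.3.3 (quasi-likelihood test, Benjamini-Hochberg over the 19310 adult or 20196 neonatal genes tested, prior count 0.125, floor of 3 counts). Biological variation was 14.5% in adults and 19.8% in neonates. The tests were run on simulated counts first. Exonic lengths and neighbours came from GENCODE M21, and promoter letters from RefSeq on GRCm38.p6. Intervals and floors cover counting error only.

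Per-library values were given for called members averaging at least 5 CPM in the higher group, up to 6 a comparison by size of change, and for pathway genes up to 4 a comparison by adjusted p. Members, classes and lists were chosen with earlier results of these data known. Alternatives were DESeq2 1.42.0, other scalings and filters, terms for age, sex, replicate number or libraries without mitochondrial counts, and leaving out each library. Same-numbered AireKO and AireEEDdKO libraries deviated together (correlations of 0.108, 0.143 and 0.213). The labels give same-numbered libraries of both groups the same age and sex but name no shared litter. The values reported for this comparison come from the fit of group means without pairing, and pairing by number entered only as the replicate block among the alternatives.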

Additional observations from a re-analysis of the deposited data

Results flagged for a closer look

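Of 174 groups of values checked for a library far from the others, 14 were picked out. For normally distributed values chance alone picks about 1 in 20. Where all libraries but 1 held 0 counts, as for Col11a1, Col24a1 and Col26a1 below, the remaining library is always picked out. Groups of 3 libraries were not checked. In adult mTEClo WT, replicate 6 stood highest for Col10a1 at 16.5 CPM (nearest 9.40) and Col1a2 at 7.63 CPM (nearest 2.7), and replicate 4 lowest for Col23a1 at 3.67 CPM (nearest 6.36). In adult mTEClo AireKO, replicate 4 was lowest for Col18a1 at 145.7 CPM (nearest 197) and for the fibrillar sum at 328.3 CPM (nearest 447.7). In adult mTEChi AireKO, replicate 2 held 0.409 CPM of both Col11a1 and Col24a1 where the others held 0, replicate 1 held 1.32 CPM of Col26a1 where the others held 0, and replicate 4 was highest for Col4a6 at 4.18 CPM (nearest 3.08). In adult mTEChi WT, replicate 7 was highest for Col6a3 at 137.4 CPM (nearest 108.0). In neonatal mTEClo EEDcKO, replicate 2 was highest for Col10a1 at 21.9 CPM (nearest 7.46). In neonatal mTEChi Ctrl, replicate 3 was highest for Col17a1 at 115.2 CPM (nearest 88.3), replicate 2 for Col3a1 at 19.1 CPM (nearest 8.44), and replicate 5 for the fibrillar sum at 561.1 CPM (nearest 478.9).

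The effect of Aire loss differed between adult fractions by an interaction term, mTEChi minus mTEClo on the log2 scale, by -8.88 for Col6a3, -7.32 for Col1a1, -5.92 for Col11a1, -5.75 for Col3a1, -5.72 for Col24a1 and -5.08 for Col26a1. That of EED loss in neonates differed by -4.37 for Col3a1, -2.23 for Col7a1, -2.22 for Col4a6 and -1.11 for Col17a1.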

How the results depend on the processing

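Most counts of called collagens stayed within 1.5 times their value as reported. For the EED effect between fractions (4 called), 9 were called with no filter on low counts and 7 by DESeq2. For the Aire by EED interaction (0 called), 1 was called with library size alone, 5 with no filter, 1 with a replicate block, 1 with age in days as a term, 2 with only the groups compared, 3 by DESeq2 and 0 to 3 when 1 library was left out (3 without EEDcKO replicate 1, 1 without EEDcKO replicate 3, 2 without AireEEDdKO replicate 3). For mTEClo AireEEDdKO minus EEDcKO (5 called), 3 were called with a replicate block, 3 with age in days, 0 with only the groups compared and 1 to 8 when 1 library was left out (1 without AireEEDdKO replicate 1 or 2, 3 without EEDcKO replicate 1, 8 without EEDcKO replicate 3). For the pairing in AireEEDdKO minus AireKO the replicate block called 15, the same 15 genes, and in the other comparisons the replicate block moved no count by over 1.5 times except those given. Directions turned for Col6a5 in adult mTEChi AireKO with a term for libraries without mitochondrial counts (1.05), for Col4a4 (-1.02) and Col4a5 (-1.05) in adult mTEClo AireKO with that term, for the same genes without those libraries (-1.0 and -1.04), and for Col6a6 in mTEClo AireEEDdKO minus EEDcKO (0.72 with all libraries) when 1 library was left out (-2.58 without AireEEDdKO replicate 3 to 1.27 without replicate 2). The cause was not tested. For Col6a5 the term carries a difference between mTEClo AireKO libraries over to mTEChi. Over all genes, library size alone moved the median log2 change from 0.03 to -0.18 in neonatal mTEChi AireKO, from -0.02 to -0.20 in the adult difference between fractions, from -0.01 to -0.18 in adult mTEChi AireKO and from -0.01 to -0.15 in mTEChi AireEEDdKO minus EEDcKO, and the split of calls in neonatal mTEChi AireKO went from 718 higher and 2593 lower to 357 and 3084, and in the interaction from 163 and 90 to 177 and 53. Of 2349 member results with 1 library left out, 2241 kept side and direction, 107 lost their call and 1 turned. Low counts limit Col1a1, Col3a1, Col8a1, Col11a1, Col24a1, Col26a1 and Col28a1, whose AireKO groups held 0 to 3 counts in all in at least 1 table.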
